A study of Rattus norvegicus with 18 samples.

Results

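The genes described here are 8 enzymes where renal gluconeogenesis, fructose breakdown and glycerate metabolism meet: Pck1, Pck2, Fbp1, Khk, Tkfc, Glyctk, Xylb and Gpd1. They were chosen by gene name from a table of 32116 genes. All 8 were found, and all 8 were among the 13851 genes with enough signal to be tested. In gluconeogenesis, glucose is rebuilt from lactate, glutamine and glycerol. Phosphoenolpyruvate carboxykinase opens the route from oxaloacetate, and fructose bisphosphatase performs a later irreversible step. In the kidney this route and the breakdown of fructose are both known as work of the proximal tubule, the segment that reabsorbs most of the filtrate. There, ketohexokinase phosphorylates fructose, and triokinase brings the glyceraldehyde released later into the triose phosphate pool. Glycerate kinase, xylulokinase and glycerol phosphate dehydrogenase tie glycerate, xylulose and glycerol phosphate to the same pools.

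RNA from rat kidneys was sequenced in 18 libraries, 6 in each of 3 groups. SZ kidneys came from rats given both adenine (100 mg/kg/day) and SZ-A (300 mg/kg/day), CKD kidneys from rats given adenine alone (100 mg/kg/day), and NC kidneys from untreated rats. What SZ-A is, and the strain, sex, age and length of treatment of the rats, are not stated in the labels. Adenine overload is a common way of producing tubulointerstitial kidney disease in rodents. The labels number the libraries in a group without saying that each came from its own animal, so p-values speak of the spread from library to library, part of which may be technical.

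Depth was similar throughout, at 15354358 to 18532375 reads per library. Levels are given in FPKM, fragments per kilobase of gene scaled to a library size that the authors set, so that levels of different genes can be compared per length. The kidney label held: all 22 proximal tubule markers were tested, and their summed level was 5157 to 5895 FPKM in SZ, 1841 to 4650 FPKM in CKD and 6919 to 9990.4 FPKM in NC libraries. The tubular injury gene Havcr1 averaged 189 ± 85.0 FPKM in SZ, 230 ± 61.0 FPKM in CKD and 0.680 ± 0.434 FPKM in NC kidneys (SD, n = 6 each). In whole-kidney RNA, fewer cells of a type and less RNA per cell cannot be told apart. Mitochondrial transcripts took 11.1% to 18.4% of reads in SZ, 5.86% to 16.0% in CKD and 14.7% to 24.1% in NC libraries. In 3 libraries values fell with gene length, relative to the average library: the slopes were -0.31 log2 units per doubling of length in CKD 5, -0.25 in SZ 3 and -0.21 in CKD 2, against -0.10 to 0.11 in the other libraries. Without these 3 libraries the number of the 8 genes past the test was the same as with them, 8 for CKD against NC, 4 for SZ against CKD and 4 for SZ against NC.

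Pck1 encodes the cytosolic phosphoenolpyruvate carboxykinase and Pck2 the mitochondrial one, so the same reaction is served from 2 compartments. On the rat build mRatBN7.2, Pck1 lies at chr3:161930256-161936191 and Pck2 at chr15:29027894-29037283, both on the plus strand. Pck1 is a classic gene of hormonal control through cyclic AMP, whereas Pck2 is known in mouse and human cells as a target of the stress factor ATF4. Promoter windows from 250 bases before to 50 after the annotated start are printed to show how different the starts of these isozyme genes are. They are RefSeq sequence of the build GRCr8, at chr3:182348322-182348621 for Pck1 and chr15:32997603-32997902 for Pck2, both on the plus strand and read 5′ to 3′. Capitals mark the match to the cyclic AMP response core TGACGT in Pck1 and to the C/EBP-ATF element TGATGNAA in Pck2, each found on the opposite strand.
Pck1: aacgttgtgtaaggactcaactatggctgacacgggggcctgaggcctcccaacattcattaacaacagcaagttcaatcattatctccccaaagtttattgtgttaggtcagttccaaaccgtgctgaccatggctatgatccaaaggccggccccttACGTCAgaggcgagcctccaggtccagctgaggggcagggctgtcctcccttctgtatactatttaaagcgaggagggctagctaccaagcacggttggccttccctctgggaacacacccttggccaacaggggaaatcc
Pck2: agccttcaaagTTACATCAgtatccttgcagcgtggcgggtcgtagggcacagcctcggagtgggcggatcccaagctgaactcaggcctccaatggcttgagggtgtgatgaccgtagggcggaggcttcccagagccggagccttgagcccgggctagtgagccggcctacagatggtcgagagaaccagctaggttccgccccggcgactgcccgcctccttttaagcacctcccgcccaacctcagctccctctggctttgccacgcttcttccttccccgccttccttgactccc
The match began at position -91 from the start in Pck1 and at position -239 in Pck2. Over both strands of 33469 rat promoter windows of this length, 7.94% held TGACGT and 3.98% held TGATGNAA. Of the 8 genes, 7 had a window, and none of these held the HNF4 letters CAAAGTNCA (in 1.24% of all windows), the TATA box letters TATAAA (14.2%), the E-box CACGTG (6.42%) or the FOXO letters GTAAACA (3.78%). A match describes the letters only.

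Pck1 had 1137, 1889 and 2866 FPKM (lowest, median and highest library) in SZ kidneys, 306, 1087 and 2408 FPKM in CKD kidneys, and 2941, 3686 and 4959 FPKM in NC kidneys. Every NC library lay above every other library, the CKD libraries were spread most widely, and SZ and CKD overlapped. Pck2 had 9.35, 10.7 and 17.3 FPKM in SZ kidneys, 9.78, 12.8 and 19.6 FPKM in CKD kidneys, and 6.88, 7.98 and 9.66 FPKM in NC kidneys. Its order was the reverse of that of Pck1: all CKD libraries lay above all NC libraries, and SZ overlapped with both. Per length, the cytosolic isozyme was by far the more abundant of the pair in every library.

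Fbp1 encodes fructose bisphosphatase and lies at chr17:2208031-2230071 on the plus strand (mRatBN7.2, as for all gene positions below). Its levels were 503, 630.2 and 784 FPKM in SZ kidneys, 167, 358 and 636 FPKM in CKD kidneys, and 899, 972 and 1072 FPKM in NC kidneys. NC libraries stood above all others, while the lower SZ libraries overlapped with the upper CKD libraries.

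Khk, on the minus strand at chr6:25445300-25455717, encodes ketohexokinase, the entry enzyme of fructose breakdown. It had the lowest median of the 8 genes per length in each group, at 2.99, 4.88 and 5.84 FPKM in SZ, 0.987, 2.31 and 3.25 FPKM in CKD and 5.55, 7.79 and 8.21 FPKM in NC kidneys. CKD and NC libraries did not overlap, and SZ libraries lay between them with a small overlap on either side. These levels rest on 32 to 216 reads per library. All 10418 bases of Khk lie within the annotated span of Emilin1 on the same strand. Only whole gene spans were compared, so whether exons overlap, and whether reads were shared or lost, is not known. Emilin1, a matrix glycoprotein gene, averaged 14.0 ± 1.69 FPKM in SZ, 19.0 ± 6.70 FPKM in CKD and 4.89 ± 1.87 FPKM in NC kidneys (SD, n = 6 each), so it ran opposite to Khk between CKD and NC.

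Tkfc, on the minus strand at chr1:207236557-207252737, encodes triokinase, which phosphorylates glyceraldehyde and dihydroxyacetone. Its levels were 92.8, 113 and 119 FPKM in SZ, 37.8, 75.6 and 123 FPKM in CKD and 150.2, 178 and 243 FPKM in NC kidneys. SZ libraries were close together and lay inside the upper part of the CKD range, below every NC library. The gene overlaps Cyb561a3 by 1015 bases on the opposite strand. That neighbour had the lower level of the pair, with medians of 7.57 FPKM in SZ, 9.20 FPKM in CKD and 7.33 FPKM in NC kidneys.

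Glyctk, on the minus strand at chr8:106797343-106802397, encodes glycerate kinase, which turns glycerate into phosphoglycerate. Its promoter window (RefSeq, GRCr8, chr8:115681042-115681341, minus strand, read 5′ to 3′) is shown because it is the only other window of the 7 with a motif match, again to TGACGT on the opposite strand, at position -84 and in capitals.
Glyctk: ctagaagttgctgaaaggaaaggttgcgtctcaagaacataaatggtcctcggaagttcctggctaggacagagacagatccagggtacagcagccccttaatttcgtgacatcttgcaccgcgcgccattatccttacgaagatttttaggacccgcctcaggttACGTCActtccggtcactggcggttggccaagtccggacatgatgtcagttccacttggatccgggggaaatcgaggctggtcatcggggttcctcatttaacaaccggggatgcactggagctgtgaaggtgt
Glyctk had 104, 125 and 130.4 FPKM in SZ kidneys, 38.5, 60.4 and 101 FPKM in CKD kidneys, and 111, 124 and 153 FPKM in NC kidneys. SZ and NC libraries overlapped widely, and all of both lay above every CKD library. Xylb, at chr8:119096029-119128848 on the plus strand, encodes xylulokinase, which feeds xylulose into the pentose phosphate pathway. It had 59.3, 81.3 and 108 FPKM in SZ kidneys, 34.2, 39.7 and 53.7 FPKM in CKD kidneys, and 94.5, 104 and 111 FPKM in NC kidneys. The CKD libraries again lay below all others, and of the SZ libraries SZ 4 alone, at 108 FPKM, reached into the NC range.

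Gpd1, at chr7:130844138-130851529 on the plus strand, encodes the cytosolic glycerol phosphate dehydrogenase, which joins glycerol phosphate and dihydroxyacetone phosphate. It had 70.4, 94.3 and 111 FPKM in SZ kidneys, 25.2, 56.6 and 121 FPKM in CKD kidneys, and 142, 153 and 160.0 FPKM in NC kidneys. NC libraries were tightly grouped above the rest, and the highest CKD library exceeded every SZ library. Within the CKD group, library CKD 1 was the highest and CKD 5 the lowest for all 7 genes other than Pck2, and CKD 5 was the highest for Pck2. In the SZ and NC groups no single library held such a place for all 7.

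**Figure D1:**
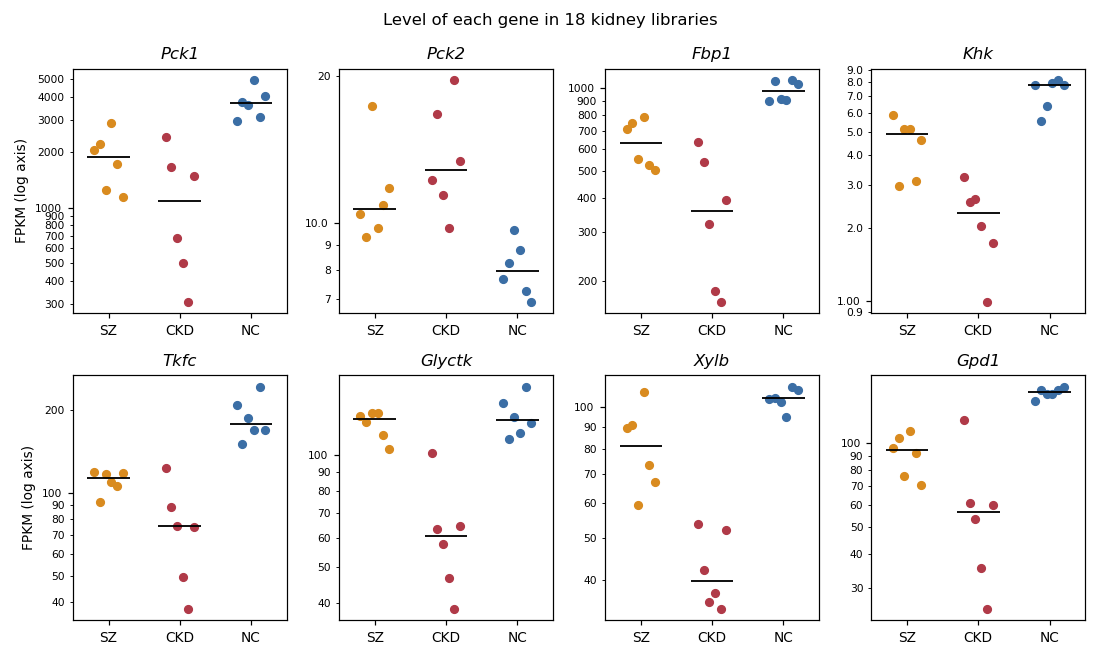
Level of each of the 8 genes in FPKM (log axis, scaled per panel) in the 6 SZ, 6 CKD and 6 NC libraries, with 1 point per library and a bar at the group median. Pck1, with medians of 1889, 1087 and 3686 FPKM, and Pck2, with medians of 10.7, 12.8 and 7.98 FPKM in SZ, CKD and NC, run in opposite order.

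The comparison of CKD with NC shows what went with adenine. The 7 genes other than Pck2 fell in CKD kidneys and Pck2 rose. Pck1 averaged 1176 ± 814 FPKM in CKD and 3736 ± 725 FPKM in NC kidneys (SD, n = 6 each), and Khk 2.20 ± 0.791 FPKM in CKD and 7.28 ± 1.07 FPKM in NC kidneys. Pck2 averaged 13.9 ± 3.66 FPKM in CKD and 8.10 ± 1.03 FPKM in NC kidneys.

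A gene is called where limma's test on log2(FPKM + 1), adjusted by Benjamini-Hochberg over all genes tested, gave an adjusted p under 0.05, and fold changes are on that scale. All 8 genes were called, 7 lower and 1 higher, where 50.3% of all genes tested were called, 24.4% higher and 26% lower. The ranges of the groups did not overlap for any of the 8, against 26.5% of all genes. The median log2 fold change of the 8 was -1.40, and that of all genes was -0.040. On the gluconeogenic side, Pck1 fell by 1.99 log2 units (SE 0.40, adjusted p = 0.00049) and Fbp1 fell by 1.55 (SE 0.27, adjusted p = 0.00012). Pck2 rose by 0.68 (SE 0.16, adjusted p = 0.0014), the only rise among the 8. On the fructose side, Khk fell by 1.40 (SE 0.17, adjusted p = 3.6e-06) and Tkfc fell by 1.39 (SE 0.21, adjusted p = 2.7e-05). The added 1 FPKM compresses the fold of Khk, whose mean was 3.30 times as high in NC as in CKD kidneys, against 2.51 times for Tkfc. Glyctk fell by 1.09 (SE 0.17, adjusted p = 3.4e-05), Xylb fell by 1.30 (SE 0.14, adjusted p = 9.0e-07) and Gpd1 fell by 1.51 (SE 0.25, adjusted p = 7.1e-05). The calls and their directions were the same in each of the other scalings, models and single left-out libraries that were run, except that Khk could not be tested where a mean of at least 5 FPKM was asked for.

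The library size enters these values. As deposited, 48.4% of the genes called between CKD and NC were higher, but this share became 83.7% with each library set to the same FPKM sum (TPM), 77.6% with plain read totals and 62.3% when the 20 top genes were kept out of the sum. Under these scalings the all-gene median was 0.34, 0.25 and 0.067 log2 units. Relative to it, the 8 genes had a median of -1.36 as deposited, -1.34 under TPM, -1.34 with plain read totals and -1.35 with the 20 top genes kept out.

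Several of these enzymes are also made by other cells, such as adipocytes (Pck1, Gpd1) and hepatocytes. The 9 adipocyte markers summed to 13.0 to 42.3 FPKM in SZ, 23.5 to 78.4 FPKM in CKD and 15.5 to 43.2 FPKM in NC libraries. Of the 4 tested, Cfd (complement factor D, 3.53, limma adjusted p = 6.9e-06) was higher and Adipoq (adiponectin, -0.42, adjusted p = 0.021) lower in CKD than in NC. The fat droplet gene Plin1 averaged 0.0203 FPKM in SZ, 0.0195 FPKM in CKD and 0.145 FPKM in NC kidneys, Retn was at 0 in every SZ and NC library and Ucp1 at 0 in every SZ and CKD library. Cidec, a fat droplet gene, averaged 11.5 FPKM in SZ, 8.81 FPKM in CKD and 17.0 FPKM in NC kidneys, Cfd 4.53, 20.5 and 0.470 FPKM, and Adipoq 4.61, 4.09 and 5.95 FPKM in the same order. Of 8 hepatocyte markers, 7 were found, which summed to 14.6 to 24.7 FPKM in SZ, 7.02 to 23.8 FPKM in CKD and 20.6 to 35.1 FPKM in NC libraries. Alb (albumin) averaged 0.0371 FPKM in SZ, 0.0163 FPKM in CKD and 0.0497 FPKM in NC kidneys. Most of the sum came from Apoc3, an apolipoprotein gene, at 16.0 FPKM in SZ, 11.8 FPKM in CKD and 22.3 FPKM in NC kidneys, which was called lower in CKD than in NC (-1.004, limma adjusted p = 0.0042), and from Apoh, at 2.18, 1.93 and 4.92 FPKM (-0.94, adjusted p = 0.073). Macrophage markers moved with the groups: all 10 were called higher in CKD than in NC, and they summed to 426 to 1000.4 FPKM in SZ, 1081 to 2367 FPKM in CKD and 105 to 202 FPKM in NC libraries. The part of these cell types in the result was not tested.

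**Figure D2:**
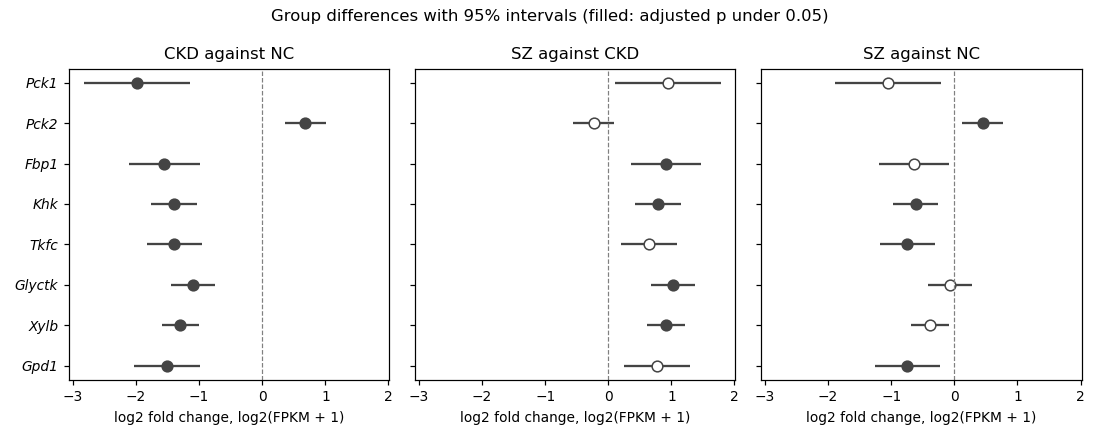
Log2 fold change of each gene on the log2(FPKM + 1) scale with its 95% interval (limma), for CKD against NC, SZ against CKD and SZ against NC (6 libraries per group), filled where the adjusted p is under 0.05. All 8 are filled for CKD against NC, 4 for SZ against CKD and 4 for SZ against NC.

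The comparison of SZ with CKD shows what went with SZ-A in rats given adenine. Glycerate kinase, xylulokinase, ketohexokinase and fructose bisphosphatase rose in SZ kidneys. Glyctk averaged 122 ± 10.4 FPKM in SZ and 61.9 ± 21.7 FPKM in CKD kidneys, and Xylb 81.3 ± 18.02 FPKM in SZ and 42.5 ± 8.52 FPKM in CKD kidneys (SD, n = 6 each). The estimates for the other 4 genes did not pass the test.

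Of the 8 genes, 4 were called, all higher, where 11% of all genes were called, 4.16% higher and 6.82% lower. The SZ and CKD ranges did not overlap for 2 of the 8, Glyctk and Xylb, both higher in SZ, against 2.26% of all genes, 0.628% higher and 1.63% lower. The median log2 fold change was 0.85 over the 8 genes and 0.0055 over all genes. Glyctk rose by 1.02 log2 units (SE 0.17, limma adjusted p = 0.0030) and Xylb by 0.91 (SE 0.14, adjusted p = 0.0024). Khk rose by 0.79 (SE 0.17, adjusted p = 0.011). These 3 calls were the same in each alternative run at this threshold, except that Khk could not be tested at a mean of at least 5 FPKM.

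Fbp1 rose by 0.91 (SE 0.27, adjusted p = 0.036), but its call was lost with no filter on low values (adjusted p = 0.068), with only the 2 groups in the fit (0.103), and without CKD 3 (0.063), CKD 4 (0.071), CKD 5 (0.089), SZ 1 (0.073), SZ 2 (0.077) or SZ 4 (0.089). Tkfc and Gpd1 lay on the other side of the same threshold. Tkfc had a log2 fold change of 0.65 (95% interval 0.21 to 1.08, adjusted p = 0.052) and Gpd1 of 0.77 (0.25 to 1.29, adjusted p = 0.052). Pck1 had the widest interval, 0.10 to 1.78 around a log2 fold change of 0.94 (adjusted p = 0.13). Pck2 was the only gene of the 8 with an estimate below 0, a log2 fold change of -0.23 (-0.56 to 0.093, adjusted p = 0.33). For these 4 genes the difference did not pass, which does not mean that the groups were alike.

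CKD 1, the highest CKD library for the 7 genes, weighed on this comparison. Without it, 7 of the 8 genes were called higher in SZ, with Pck1 at a log2 fold change of 1.22 (limma adjusted p = 0.028), Tkfc at 0.81 (adjusted p = 0.0061) and Gpd1 at 1.01 (adjusted p = 0.0021). Calls over all 13851 genes also rose without CKD 1, from 576 higher and 945 lower to 1213 higher and 1585 lower. Tkfc was also called without CKD 2 (0.71, adjusted p = 0.048) and Gpd1 without SZ 3 (0.82, adjusted p = 0.036). Other settings called Tkfc as well, namely a mean of at least 5 FPKM (adjusted p = 0.049), the 20 top genes kept out of the sum (0.04999), the lowess correction for gene length (0.038) and array weights (0.019). Gpd1 was called at a mean of at least 5 FPKM (adjusted p = 0.049), with the lowess correction (0.046) and with array weights (0.0069).

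The comparison of SZ with NC shows what still differed from untreated kidneys when SZ-A was given with adenine. As deposited, Khk, Tkfc and Gpd1 were lower in SZ than in NC kidneys and Pck2 was higher, though the falls depended on the library size, as given below. Gpd1 averaged 91.8 ± 15.9 FPKM in SZ and 152 ± 6.23 FPKM in NC kidneys, and Tkfc 110.4 ± 9.96 FPKM in SZ and 188 ± 33.5 FPKM in NC kidneys (SD, n = 6 each). Glyctk, at 122 ± 10.4 FPKM in SZ and 128 ± 15.8 FPKM in NC kidneys, was not called.

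Of the 8 genes, 4 were called, where 21.1% of all genes were called, 12.5% higher and 8.61% lower. The ranges did not overlap for 4 of the 8, Pck1, Fbp1, Tkfc and Gpd1, all lower in SZ, against 14.6% of all genes, 8.86% higher and 5.7% lower. The median log2 fold change was -0.63 over the 8 genes and -0.035 over all genes. Tkfc fell by 0.75 log2 units (SE 0.21, limma adjusted p = 0.016), Gpd1 fell by 0.74 (SE 0.25, adjusted p = 0.040), Khk fell by 0.61 (SE 0.17, adjusted p = 0.017) and Pck2 rose by 0.45 (SE 0.16, adjusted p = 0.048). Not called were Pck1 (-1.05, 95% interval -1.89 to -0.20, adjusted p = 0.071), Fbp1 (-0.64, -1.20 to -0.078, adjusted p = 0.098) and Xylb (-0.38, -0.68 to -0.087, adjusted p = 0.062). Glyctk had the estimate nearest 0, a log2 fold change of -0.067 (-0.42 to 0.28, adjusted p = 0.81). Its sign turned under TPM (0.24), plain read totals (0.15) and a sum with the 20 top genes kept out (0.058), under which the all-gene median was 0.22, 0.15 and 0.071.

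The count of 4 was thin. It became 2 without any 1 of NC 1, NC 2, NC 4, NC 5, NC 6, SZ 1, SZ 3, SZ 5 and SZ 6, with Gpd1 and Pck2 losing their calls, and 6 without CKD 1 or CKD 5, libraries that enter only through the shared estimate of spread. Under TPM and under plain read totals it was 1, Pck2, and all 3 falls lost their calls. Khk was then at a log2 fold change of -0.35 (limma adjusted p = 0.14) and -0.43 (0.077), Tkfc at -0.44 (0.10) and -0.53 (0.050004), and Gpd1 at -0.44 (0.16) and -0.53 (0.095). With the 20 top genes kept out of the sum the count was 2, Pck2 and Tkfc. The share of all calls that were higher was 59.1% as deposited and 92.8%, 88.3% and 80.7% under those 3 scalings. For SZ against CKD it was 37.9%, 14.5%, 17.9% and 33.4% in the same order.

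Within each library the isozymes can be set against each other, and the library size then cancels. The mitochondrial Pck2 made up 0.339%, 0.567% and 1.37% (lowest, median, highest) of the summed Pck1 and Pck2 FPKM in SZ, 0.506%, 1.32% and 6.03% in CKD and 0.170%, 0.227% and 0.266% in NC kidneys. All SZ and all CKD libraries lay above all NC libraries, and SZ and CKD overlapped. The mean share was higher by 1.77 percentage points in CKD than in NC (exact permutation test, 2-sided, p = 0.0022, the smallest that 6 against 6 libraries can give, and adjusted p = 0.0043 over 6 share comparisons). It was higher by 0.49 points in SZ than in NC, with the same exact p and adjusted p. Between SZ and CKD the difference of -1.28 points did not pass (exact p = 0.069, adjusted p = 0.069). CKD 5 set much of these sizes: without it the difference was 0.967 points for CKD against NC (adjusted p = 0.0043) and -0.473 points for SZ against CKD (adjusted p = 0.15). The SZ against CKD difference passed without CKD 1 (-1.58 points, adjusted p = 0.017) or CKD 6 (adjusted p = 0.049).

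Gpd1 shares its reaction with Gpd1l, a cytosolic relative, and Gpd2, the mitochondrial enzyme of the glycerol phosphate shuttle. Gpd1 made up 69.5%, 75.4% and 77.4% of their summed FPKM in SZ, 52.5%, 68.8% and 80.7% in CKD and 79.3%, 81.1% and 83.5% in NC kidneys. SZ libraries lay below all NC libraries, and CKD libraries ran from far below into the lower end of the NC range. The mean share was lower by a difference of -15.2 points in CKD than in NC (exact permutation p = 0.0065, adjusted p = 0.0097) and of -6.76 points in SZ than in NC (exact permutation p = 0.0022, adjusted p = 0.0043). SZ kidneys exceeded CKD kidneys by 8.44 points, which did not pass (exact permutation p = 0.067, adjusted p = 0.069), and it passed without CKD 1 (11.3 points, adjusted p = 0.0052). Of the relatives, Gpd1l averaged 28.2 ± 3.50 FPKM in SZ, 23.3 ± 2.08 FPKM in CKD and 31.1 ± 1.96 FPKM in NC kidneys (SD, n = 6 each).

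**Figure D3:**
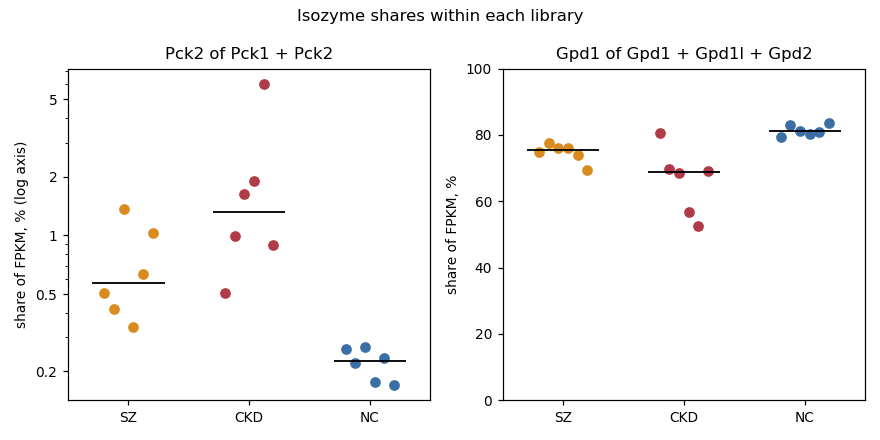
Share of Pck2 in the summed Pck1 and Pck2 FPKM (left, log axis, percent) and of Gpd1 in the summed Gpd1, Gpd1l and Gpd2 FPKM (right, percent), with 1 point per library and a bar at the median of each group of 6. The Pck2 share has medians of 0.567%, 1.32% and 0.227% in SZ, CKD and NC, and CKD 5 stands highest at 6.03%.

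Gluconeogenesis and fructose breakdown are known as work of the proximal tubule, though in which cells the 8 genes were expressed was not tested. Proximal tubule markers moved with the groups, as did those of other nephron segments. Of 22 markers such as Lrp2 (megalin) and Slc22a6 (an organic anion carrier), 16 were called lower and 0 higher in CKD than in NC, 9 higher and 0 lower in SZ than in CKD, and 0 either way between SZ and NC. Their median log2 fold changes were -1.20, 0.85 and -0.44 in these comparisons, against -1.40, 0.85 and -0.63 for the 8 genes. Of 9 tested markers of the loop, distal tubule and collecting duct, 8 were lower and 0 higher in CKD than in NC (median -1.42), 2 higher in SZ than in CKD (0.34) and 5 lower in SZ than in NC (-1.08). All 5 tested podocyte markers were lower in CKD than in NC (-0.99), 0 were called between SZ and CKD (0.13) and 5 were lower in SZ than in NC (-0.78). Over all genes, 50.3% were called in CKD against NC, 11% in SZ against CKD and 21.1% in SZ against NC. The mean log2(FPKM + 1) of the markers was 6.99 ± 0.163 in SZ, 6.19 ± 0.492 in CKD and 7.42 ± 0.175 in NC libraries (SD, n = 6 each). CKD 5 had the lowest mean of all libraries, 5.42, and CKD 1 the highest of the CKD libraries, 6.79.

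Each gene was therefore also measured as its log2(FPKM + 1) minus the marker mean of the same library, with exact 2-sided permutation tests adjusted over 24 comparisons. Pck2 stood apart from the markers. It was at -3.36 ± 0.411 in SZ, -2.33 ± 0.688 in CKD and -4.24 ± 0.304 in NC libraries (SD, n = 6 each). The difference was 1.91 between CKD and NC (exact p = 0.0022, adjusted p = 0.017) and 0.88 for SZ less NC (also exact p = 0.0022, adjusted p = 0.017), of which Pck2 itself contributed 0.68 and 0.45 and the lower marker mean the remainder. Between SZ and CKD it was -1.03 (exact p = 0.0043, adjusted p = 0.026). Pck2 itself, not called on its own (limma adjusted p = 0.33), contributed -0.23 of this and the higher marker mean the remainder. The -1.03 call was lost without any 1 of CKD 2 to CKD 6, SZ 1, SZ 2 and SZ 4 to SZ 6. Differences ran from -1.18 to -0.78 over all single left-out libraries. The call was also lost with the median of the markers (-1.09, adjusted p = 0.061), and without CKD 2, CKD 5 and SZ 3 together (-0.83, adjusted p = 0.076).

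Glyctk was the other gene past this test. Relative to the markers it was at -0.056 ± 0.177 in SZ, -0.280 ± 0.142 in CKD and -0.417 ± 0.0954 in NC libraries, a difference of 0.36 between SZ and NC (exact permutation p = 0.0022, adjusted p = 0.017), which was lost with the median of the markers in place of the mean (0.31, adjusted p = 0.089). Between SZ and CKD Glyctk differed by 0.22 (exact permutation p = 0.030, adjusted p = 0.10), and between CKD and NC by 0.14 (adjusted p = 0.18). The difference between SZ and CKD passed with the lowess correction for gene length (0.28, adjusted p = 0.042). Pck1 relative to the markers was at 3.81 ± 0.446 in SZ, 3.67 ± 0.692 in CKD and 4.43 ± 0.431 in NC libraries. Its difference between CKD and NC, -0.76, did not pass (exact permutation p = 0.054, adjusted p = 0.14). For Fbp1, Khk, Tkfc, Xylb and Gpd1 the differences between CKD and NC ran from -0.33 for Fbp1 to -0.069 for Xylb, and none passed. Khk passed with a pseudocount of 0.1 (-0.50, adjusted p = 0.031) and Gpd1 without CKD 1 (-0.40, adjusted p = 0.031). Against NC, SZ kidneys differed by -0.62 for Pck1 (adjusted p = 0.12), -0.32 for Tkfc (adjusted p = 0.10) and -0.31 for Gpd1 (adjusted p = 0.10). Fbp1 (-0.21), Khk (-0.19) and Xylb (0.045) did not pass either. Gpd1 passed with the median of the markers (-0.37, adjusted p = 0.017).

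**Figure D4:**
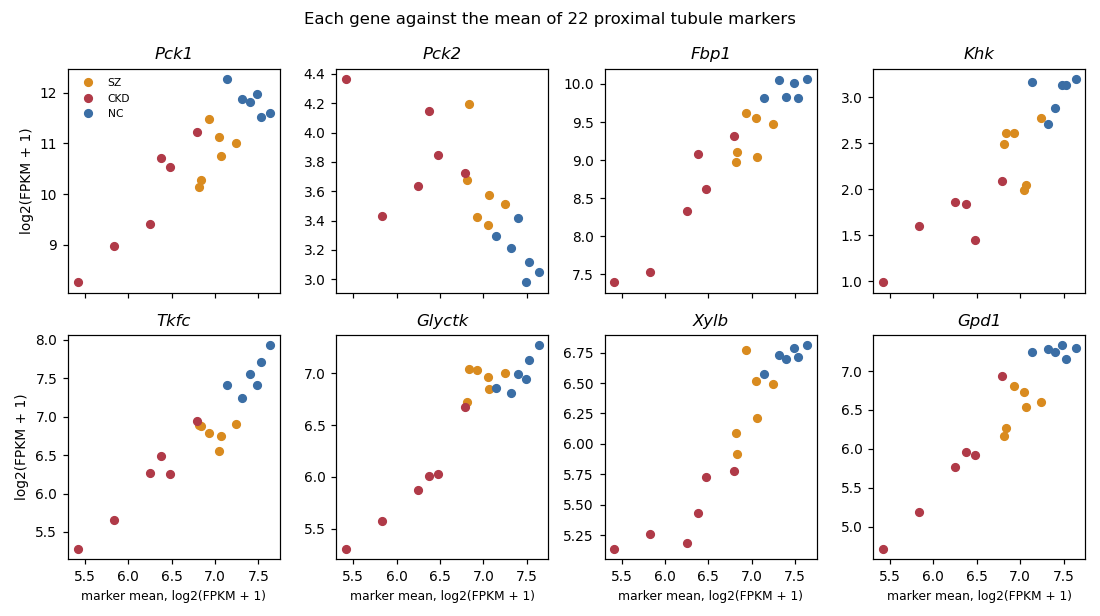
Each of the 8 genes (vertical axis, log2(FPKM + 1)) against the mean log2(FPKM + 1) of 22 proximal tubule markers (horizontal axis) in the 18 libraries. In the panels of the genes other than Pck2, CKD 5, at a marker mean of 5.42, is at the lower left and the NC libraries, with a mean of 7.42, at the upper right, whereas Pck2 slopes the other way.

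Around these enzymes, 95 genes of the same and neighbouring routes were listed and 81 were tested. In CKD against NC, 57 were called, 10 higher and 47 lower, which is 70.4% of those tested against 50.3% of all genes. In SZ against CKD, 16 were called, 13 higher and 3 lower, or 19.8% against 11% of all genes. In SZ against NC 19 were called, 8 higher and 11 lower, and this 23.5% was near the 21.1% of all genes. The SZ against CKD count was 27 without CKD 1, 29 without SZ 3, 10 without CKD 3, CKD 4, SZ 1 or SZ 2, 8 without CKD 5 and 7 without SZ 4. Calls over all genes moved the same way, from 576 higher and 945 lower with every library to 1213 and 1585 without CKD 1. They were 1468 and 1590 without SZ 3, 339 and 671 without CKD 3, and 371 and 742 without CKD 4. Without SZ 1 they were 274 and 557, and without SZ 2 275 and 575. Without CKD 5 they were 210 and 459, and without SZ 4 163 and 370. The SZ against NC count was 12 without NC 3 or NC 5 and 9 without SZ 5. All-gene calls for SZ against NC were 1726 higher and 1193 lower with every library. They were 1500 and 777 without NC 3, 1507 and 865 without NC 5, and 1451 and 735 without SZ 5.

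Of 22 tested genes of the gluconeogenic route itself, 15 fell and 1 rose in CKD against NC. That was 72.7% of the 22, against 50.3% of all genes. Pc, which carboxylates pyruvate to oxaloacetate and so supplies Pck1 and Pck2, fell by 1.45 log2 units (SE 0.21, limma adjusted p = 1.9e-05). The pyruvate carrier subunit gene Mpc1 fell by 1.24 (adjusted p = 7.8e-05) and Slc25a13, a mitochondrial aspartate-glutamate carrier, fell by 1.23 (adjusted p = 3.2e-05). Ldha, the lactate dehydrogenase subunit typical of glycolytic tissue, rose by 0.68 (adjusted p = 0.00018). In SZ against CKD 2 of the 22 were called, 9.09% against 11% of all genes and thus no more than the background. They were Pc, higher by 1.04 (adjusted p = 0.0074), and Slc25a13, higher by 0.68 (adjusted p = 0.028).

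Among 20 tested genes of fructose, polyol, glycerate and pentose handling, 13 fell and 3 rose in CKD against NC. That was 80% of the 20, against 50.3% of all genes. Shpk (sedoheptulose kinase) fell by 0.84 log2 units (limma adjusted p = 5.0e-06), Cryl1 (gulonate dehydrogenase) fell by 1.18 (adjusted p = 3.4e-05) and Grhpr, the reductase of glyoxylate and hydroxypyruvate that also makes glycerate, fell by 1.44 (adjusted p = 4.0e-05). The 3 that rose were Akr1b1 (aldose reductase, the first step from glucose to sorbitol, 1.33, adjusted p = 9.2e-06), Rpia (ribose phosphate isomerase, 0.71, adjusted p = 0.0058) and Slc2a2 (the basolateral hexose carrier, 0.83, adjusted p = 0.0094). Akr1b1 averaged 13.7 ± 2.43 FPKM in SZ, 25.6 ± 8.32 FPKM in CKD and 9.28 ± 1.76 FPKM in NC kidneys (SD, n = 6 each). In SZ against CKD 5 of the 20 rose, with Shpk up by 0.48 (adjusted p = 0.012) and Hao2, a peroxisomal hydroxyacid oxidase, up by 1.04 (adjusted p = 0.018). Of this list 2 fell, Akr1b1 by a log2 fold change of -0.81 (adjusted p = 0.012) and Rpia by -0.78 (adjusted p = 0.020). Rises and falls together were 35% of the 20, against 11% of all genes.

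Of 9 tested genes of glycerol phosphate use, 5 fell and 1 rose in CKD against NC. That was 66.7% of the 9, against 50.3% of all genes. Agpat3 (a lysophosphatidate acyltransferase) had a log2 fold change of -0.69 (limma adjusted p = 0.00023), Aqp7, a glycerol channel of the proximal tubule, of -0.46 (adjusted p = 0.015) and Gpd1l of -0.40 (adjusted p = 0.0013), while Agpat2 rose by 0.80 (adjusted p = 0.00047). In SZ against CKD the phosphatidate phosphatase gene Lpin2 was the only 1 called, higher by 0.51 (adjusted p = 0.041), a share of 11.1% that was near the background.

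Of 18 tested regulators, 10 fell and 1 rose in CKD against NC, 61.1% of those tested against 50.3% of all genes. In SZ against CKD 3 rose and 1 fell, 22.2% against 11% of all genes. Hnf4a, a transcription factor of proximal tubule and liver metabolism, fell by 1.34 log2 units (limma adjusted p = 2.1e-05) and rose by 0.84 in SZ against CKD (adjusted p = 0.014). Pth1r, the parathyroid hormone receptor, which signals through cyclic AMP, fell by 1.30 (adjusted p = 2.0e-05). Cebpb, a stress and cyclic AMP responsive factor, rose by 1.53 in CKD against NC (adjusted p = 0.0042) and was lower in SZ than in CKD by a log2 fold change of -1.30 (adjusted p = 0.046).

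The list of Atf4 and its known targets divided: of 12 tested, 4 rose and 4 fell in CKD against NC. That was 66.7% of the 12, against 50.3% of all genes, with 24.4% of all genes higher and 26% lower. Among those that rose were Atf3 (2.83, limma adjusted p = 5.1e-05), the asparagine synthetase gene Asns (1.34, adjusted p = 7.6e-06) and the mitochondrial folate enzyme gene Mthfd2 (1.23, adjusted p = 2.2e-05). Pck2 also rose but is not among the 12. The serine synthesis gene Psat1 (-1.35, adjusted p = 7.1e-05), Shmt2 (-0.86, adjusted p = 3.8e-05) and Sesn2 (-0.82, adjusted p = 5.6e-05) fell. In SZ against CKD 2 of the 12 were called, Psat1 (0.79, adjusted p = 0.030) and Sesn2 (0.74, adjusted p = 0.0041), both higher. This share was 16.7%, against 11% of all genes. Asns averaged 7.52 ± 2.33 FPKM in SZ, 7.03 ± 1.36 FPKM in CKD and 2.14 ± 0.3005 FPKM in NC kidneys (SD, n = 6 each).

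**Figure D5:**
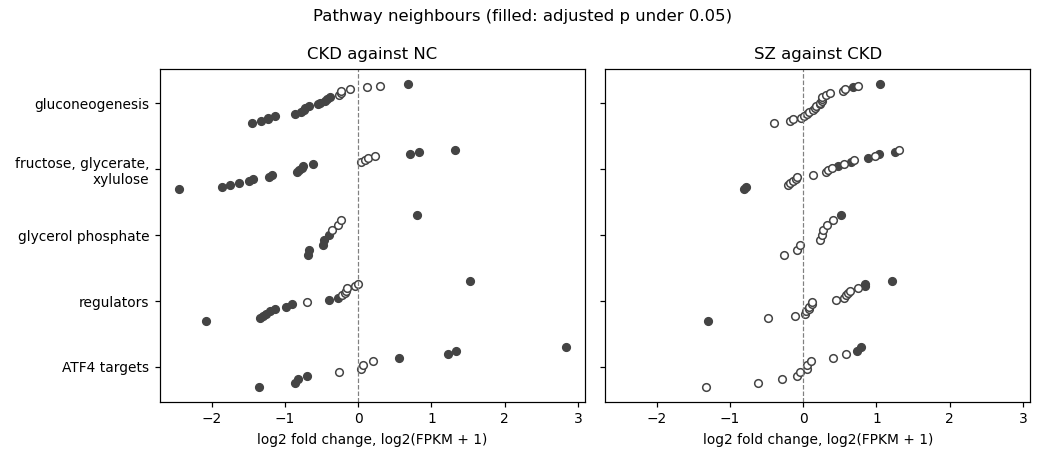
Log2 fold change on the log2(FPKM + 1) scale of the 81 tested neighbour genes by list, for CKD against NC (left) and SZ against CKD (right), with 1 point per gene, filled where limma's adjusted p is under 0.05. On the left 57 points are filled, 47 of them below 0, and on the right 16 are filled, 13 of them above 0.

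Within groups, the libraries also varied together. Over the deviations of 18 libraries from their group means, the 21 pairs among the 7 genes other than Pck2 had Pearson correlations from 0.22 to 0.92 with a median of 0.75, and the 7 pairs with Pck2 had -0.50 to -0.13. The points share their libraries and library sizes, and these values are descriptions with no test. By the same measure, genes among the 3 most like Pck1 were Slc22a25 (0.95) and Slc22a6 (0.95), the last of which is in the marker list. For Fbp1 they included Fmo1 (0.97) and Adhfe1 (0.96), and for Gpd1 Slc13a2 (0.97) and Abat (0.97). Tkfc was most like Aldh9a1 (0.97), Iyd (0.97) and Vdac1 (0.95), and Glyctk most like Slc6a13 (0.97), Aqp1 (the proximal tubule water channel, 0.96) and Mep1a (a brush border protease, 0.94). Xylb was most like Mapk4 (0.94), Ggta1 (0.90) and Stk24 (0.90). Khk had lower values throughout, with Tmem220 (0.82), Cryz (0.80) and Fmo4 (0.80). Pck2 had none of these among its own, which were Elp6 (0.93), Smarcb1 (0.93) and Mettl26 (0.91).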

How the data were processed

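Total RNA of rat kidney was taken with Trizol and made into libraries with a TruSeq kit, per the labels' protocols. The authors deposited FPKM values for 32116 genes in 1 table, with gene lengths and positions. HISAT2 2.0.5 and the build mRatBN7.2 come from the submitters' processing notes. The counting program, annotation and strand setting were not given in the sources used here. A value times its gene's length came in whole steps for 100% of values (tolerance 0.01), and the steps gave reads. The authors' library sizes were 0.862 to 1.26 times the summed reads.

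Genes at 1 FPKM or more in at least 6 libraries (13851) entered limma 3.58.1 (R 4.3.3) on log2(FPKM + 1). One model held the 3 group means of all 18 libraries, with a trend of variance on level. Tests were 2-sided, and p-values were adjusted by Benjamini-Hochberg within a comparison over the genes tested. The scale understates changes of low genes such as Khk. Isozyme shares and values relative to markers were compared by exact permutation over all splits of 6 against 6 libraries. The steps were tested on simulated data.

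Named neighbours were up to 3 called genes per list and direction for CKD against NC and up to 2 for SZ against CKD, plus the 3 genes most like each enzyme. The 8 genes and the lists were chosen with earlier results of these data known. Listed symbols not found in the table, G6pc1 and Pgk1 among them, were not analysed here. Some genes that the naming rule picked are not reported here. Same-numbered libraries of different groups had deviations correlated at -0.36 to 0.23, so the replicate numbers were not taken as pairs. Alternatives were a pseudocount of 0.1, no low-value filter, a minimum mean of 5 FPKM, 3 other scalings, voom on the reads, a lowess correction for gene length, 2-group fits, array weights, no trend, robust variance, a replicate block, a threshold of 0.01, the median of the markers, and left-out libraries.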

Additional observations from a re-analysis of the deposited data

Results flagged for a closer look

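Each of the 8 genes and both isozyme shares was screened in each group of 6 libraries, 30 groups of values in all, for a highest or lowest library set apart from the other 5. Chance alone marks about 1 in 20 such groups, and 2 were marked. In the SZ group, SZ 3 had the highest Pck2 level, 4.196 on the log2(FPKM + 1) scale, with a gap to the next library of 0.634 of the group's range, where 0.625 is the limit. SZ 3 is 1 of the 3 libraries whose values fell with gene length. Without SZ 3 the Pck2 log2 fold change of SZ against NC was 0.33 (limma adjusted p = 0.10), not called. In the CKD group, CKD 5 had the highest share of Pck2 in the summed Pck1 and Pck2 FPKM, 6.03%, with a gap of 0.746 of the range. CKD 5 also had the lowest level of the 7 other genes, the lowest proximal tubule marker mean and the steepest slope with gene length of the CKD libraries, and the part of each in this share was not tested.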

How the results depend on the processing

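For CKD against NC, all 8 genes were called in the same direction in each of the 15 alternatives and 18 single left-out libraries, except that Khk could not be tested at a mean FPKM of at least 5, and 49 to 60 neighbours were called with 1 library left out. For SZ against CKD, 2 of the 8 genes were called at an adjusted p under 0.01, where 65 of 13851 genes were higher and 181 lower. With 1 library left out, 3 to 7 of the 8 were called. For SZ against NC, the number called was 2 with no low-value filter, 1 under TPM scaling, 1 under plain totals and 2 with the 20 top genes kept out. It was 2 with voom, 7 with only the 2 groups compared and 7 with array weights. At an adjusted p under 0.01 it was 0, where 1074 of 13851 genes were higher and 352 lower. With 1 library left out it was 2 to 6. For SZ against CKD, neighbours called numbered 9 with no filter, 6 with only the 2 groups, 29 with array weights, 3 at 0.01 and 7 to 29 with 1 library left out. For SZ against NC they numbered 36, 41 and 5 (only the 2 groups, array weights, 0.01) and 9 to 24 with 1 library left out. All-gene calls for SZ against CKD were 338 higher and 760 lower with no filter. They were 143 and 411 with only the 2 groups, and 1279 and 1551 with array weights. With 1 library left out they ran from 163 and 370 (without SZ 4) to 1468 and 1590 (without SZ 3). For SZ against NC, all-gene calls were 2123 higher and 1917 lower with only the 2 groups, and 2716 and 2776 with array weights. They were 1771 and 1129 with no filter, 1661 and 1058 with voom, and 1605 and 979 with a replicate block. With 1 library left out they ran from 1451 and 735 (without SZ 5) to 1914 and 1451 (without CKD 5). Replicate numbers are shared across groups by name only. With a replicate block, 2 of the 8 genes were called for SZ against NC, Pck2 and Gpd1 not among them, and the sign-flip test of share differences, whose smallest p is limited by 6 pairs, no longer called Pck2 at 1.77 points (adjusted p = 0.0625) and Gpd1 at -15.2 (0.094) for CKD against NC, or Pck2 at 0.49 (0.0625) and Gpd1 at -6.76 (0.0625) for SZ against NC. The 4 calls relative to the markers had an adjusted p of 0.107 there. With 1 library left out, the SZ against CKD share difference ran from -1.58 to -0.47 points for Pck2 and from 5.70 to 11.3 for Gpd1. Signs turned for Glyctk in SZ against NC (0.24 under TPM, 0.15 under plain totals, 0.058 with the 20 top genes kept out). Relative to the markers they turned for Khk in SZ against CKD (0.064 with the lowess correction, 0.24 with a pseudocount of 0.1, -0.11 to 0.084 with 1 library left out), for Pck1 (-0.020 to 0.30) and Gpd1 (-0.098 to 0.089) there, and for Xylb in SZ against NC (-0.0085 with the median of the markers, -0.055 to 0.098 with 1 library left out). The causes were not tested. Depth limits Khk most, at 32 to 216 reads per library.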

Other observations

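Some neighbours outside the naming rule moved by as much as the 8 enzymes, and they are given here as values chosen after they were seen. Miox, which opens the breakdown of inositol towards xylulose in the proximal tubule and so lies upstream of Xylb, averaged 1635 ± 275 FPKM in SZ, 833 ± 582 FPKM in CKD and 2483 ± 366 FPKM in NC kidneys (SD, n = 6 each). It had a log2 fold change of -1.86 in CKD against NC (limma adjusted p = 0.00018) and of 1.25 in SZ against CKD (adjusted p = 0.025). Slc37a4, the carrier that brings glucose phosphate to its phosphatase, fell by 1.13 in CKD against NC (limma adjusted p = 0.00023).

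The regulators Ppara and Klf15 are given in the same way. Ppara, the fatty acid receptor, averaged 7.64 ± 4.52 FPKM in SZ, 2.498 ± 1.65 FPKM in CKD and 12.7 ± 3.03 FPKM in NC kidneys, with log2 fold changes of -2.08 in CKD against NC (limma adjusted p = 0.00023) and 1.22 in SZ against CKD (adjusted p = 0.049). Klf15, a factor that supports hepatic gluconeogenesis in mice, averaged 13.5 ± 3.26 FPKM in SZ, 13.1 ± 6.39 FPKM in CKD and 30.7 ± 6.69 FPKM in NC kidneys, with log2 fold changes of -1.25 in CKD against NC (adjusted p = 0.00043) and 0.12 in SZ against CKD (95% interval -0.41 to 0.64, adjusted p = 0.78). The factor gene Atf4 itself had a log2 fold change of 0.066 in CKD against NC (adjusted p = 0.78), while 4 of the 12 tested genes of its list rose and 4 fell. Agxt and Crtc2 were listed at 0 in every library.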
